A study of Mus musculus with 12 samples.

Results

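The genes described here are 10 members of the Bcl2 family that decide between survival and death of a cell. They were chosen by name, as the rows of the deposited table whose gene name was Bcl2, Bcl2l1, Mcl1, Bcl2a1b, Bcl2a1d, Bcl2l11, Bak1, Bid, Bad or Bmf. All 10 were found, each as 1 row among 34745 genes. RNA of total femoral bone marrow from 12 male ICR mice, an outbred strain, was sequenced, with 3 mice in each of 4 groups. The study does not give their age. The normal group received saline for 1 week. The other 3 groups received cyclophosphamide, an alkylating agent that damages the DNA of dividing cells, at 80 mg/kg per day on days 5 to 7. The model group received saline beside it. The QJSB group received 3 g/kg per day of Qi-Jing-Sheng-Bai granule, a formula of plant extracts and antler glue, and the leucogen group was dosed at 20 mg/kg per day with leucogen, used clinically against low leucocyte counts. Neither drug was given without cyclophosphamide, so the data hold no effect of a drug on undamaged marrow. The columns of the deposited table carry the headings Blank, Model, Positive and Stilbene, taken here, in that order, for normal, model, leucogen and QJSB.

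Proteins of this family act at the outer membrane of mitochondria. The survival proteins BCL2, BCL-XL (gene Bcl2l1), MCL1 and A1 (genes Bcl2a1a, Bcl2a1b and Bcl2a1d) hold the pore formers BAK and BAX in check. The BH3-only proteins BIM (gene Bcl2l11), BID, BAD and BMF bind the survival proteins or activate the pore formers. Once BAK or BAX form pores, cytochrome c leaves the mitochondria and caspases are activated. In blood formation, MCL1 is needed by stem cells and by granulocytes, BCL-XL by maturing erythroid cells, and BCL2 by lymphocytes.

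Bcl2a1b (ENSMUSG00000089929, chr9:89199209-89207827, plus strand, build GRCm38) and Bcl2a1d (ENSMUSG00000099974, chr9:88723285-88731914, minus strand) are near-identical copies, and the following stretch of their exons is shown because it makes plain how little separates them. It covers coding bases 1 to 90 of each GENCODE M21 transcript, 5′ to 3′, with the bases that differ in capitals.
Bcl2a1b: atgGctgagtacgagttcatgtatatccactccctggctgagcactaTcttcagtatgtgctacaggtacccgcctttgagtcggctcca
Bcl2a1d: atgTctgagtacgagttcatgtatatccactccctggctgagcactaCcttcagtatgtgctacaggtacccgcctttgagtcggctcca
Counted from the first coding base, with the base of Bcl2a1b first, the differences in it are G4T and T48C. Over the whole coding sequence of 516 bases the copies differed at 6 positions, an identity of 98.8%, and 127 of the 417 windows of 100 bases were identical. Bcl2a1a, a further copy, was identical to Bcl2a1d in 225 of the 417 windows and to Bcl2a1b in 118. How the authors assigned reads that map to more than 1 copy is not given in the sources used here, so the values of these copies are uncertain.

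The members that changed most after cyclophosphamide were Bcl2l1 and Bmf, which fell, and Bak1 and Bid, which rose. The 250 bases before 1 RefSeq start of each are shown, to set side by side the promoters of genes that moved together and of genes that moved apart. For a member with more than 1 listed start, such as Bcl2l1 and Bmf with 3 each, the start nearest that of the deposited gene was used. Motifs before the other starts are not reported here. They are from RefSeq on build GRCm38.p6, written 5′ to 3′ on the strand of the gene, all of them minus, at chr2:152831729-152831978, chr2:118549687-118549936, chr17:27028628-27028877 and chr6:120916825-120917074. Capitals mark CCAAT boxes (CCAAT, or ATTGG on the other strand) and GC boxes (GGGCGG, or CCGCCC on the other strand).
Bcl2l1: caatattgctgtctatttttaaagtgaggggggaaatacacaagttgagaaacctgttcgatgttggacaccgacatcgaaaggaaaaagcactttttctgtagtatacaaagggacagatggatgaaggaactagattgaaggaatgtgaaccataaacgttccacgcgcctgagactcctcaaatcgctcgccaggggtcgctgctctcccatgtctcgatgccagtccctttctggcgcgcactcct
Bmf: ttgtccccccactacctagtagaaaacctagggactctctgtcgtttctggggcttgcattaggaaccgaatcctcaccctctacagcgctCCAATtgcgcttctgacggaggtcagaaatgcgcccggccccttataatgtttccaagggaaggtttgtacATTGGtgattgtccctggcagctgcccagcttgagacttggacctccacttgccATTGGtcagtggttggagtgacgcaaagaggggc
Bak1: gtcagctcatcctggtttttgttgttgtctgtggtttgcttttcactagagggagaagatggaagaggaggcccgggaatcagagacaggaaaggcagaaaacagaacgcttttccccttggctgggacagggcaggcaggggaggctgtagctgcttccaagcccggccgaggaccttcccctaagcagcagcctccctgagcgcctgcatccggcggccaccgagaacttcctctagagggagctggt
Bid: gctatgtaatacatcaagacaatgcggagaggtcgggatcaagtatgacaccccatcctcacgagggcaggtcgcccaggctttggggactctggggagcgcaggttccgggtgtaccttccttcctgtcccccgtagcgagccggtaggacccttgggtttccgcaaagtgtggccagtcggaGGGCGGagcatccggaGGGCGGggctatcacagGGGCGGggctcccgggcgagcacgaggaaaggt
Bmf held 3 CCAAT boxes and Bid held 3 GC boxes, whereas Bcl2l1 and Bak1 held neither motif. In the same window of all 32851 RefSeq promoters, 33.8% held a CCAAT box and 32.7% a GC box. The letters AGATAA or TGATAA, a site of GATA factors, were searched on both strands too, were found in none of the windows of the 10 members, and were in 16.6% of all promoters. No match overlapped another in these windows. The RefSeq start of Bak1 lies 382 bases inside the deposited gene, against 0 to 29 bases for Bcl2l1, Bmf and Bid, so its window is not the region before the deposited gene start. A match of letters is no evidence of binding.

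Library totals ran from 11172547 to 18545198 counts. Levels between libraries are given as CPM, counts scaled to a common library size by TMM over the 12 libraries, and levels between genes as FPKM, which the authors deposited and which allows for transcript length. Model 1 and QJSB 1 stood apart from the other libraries of their groups. Their late neutrophil markers, 15 genes such as Ltf and Camp, summed to 5296 and 7977 CPM, against 12790 to 20730 CPM in the other model libraries and 29350 to 39420 CPM in the other QJSB libraries. Their 13 stroma and endothelium markers summed to 897 and 1066 CPM, against 299 to 370 CPM in the other libraries of both groups. Where the call of a member changed without either library, that value is given beside it. The tissue label was met by the marrow markers: granulocyte and erythroid genes were present in every library.

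Mcl1 (ENSMUSG00000038612, chr3:95658788-95663176, plus strand) had by far the highest level of the members in FPKM. It reached 156 ± 11.6 FPKM (SD, n = 3) in normal, 126 ± 10.4 in model, 123 ± 7.28 in QJSB and 127 ± 7.94 in leucogen. It made up 77.3% to 79.8% of the summed FPKM of the 10 members in the normal libraries, 67.6% to 74.2% in model, 65.4% to 74.3% in QJSB and 78.6% to 79.2% in leucogen. The ranges of normal and leucogen both lay above those of model and QJSB. The highest FPKM of any other member was 29.4, that of Bak1 in QJSB 1. In the normal libraries Bak1 (7.10 ± 0.110 FPKM), Bid (6.80 ± 0.412), Bmf (6.71 ± 0.0752) and Bcl2l1 (6.59 ± 0.335) followed each other closely, and each overlapped the next in this order. Bcl2 (5.03 ± 0.419 FPKM), Bcl2a1d (3.58 ± 0.423), Bcl2a1b (2.26 ± 0.331), Bad (2.14 ± 0.174) and Bcl2l11 (2.00 ± 0.386) came after them, and the last 3 of these overlapped. In the model libraries the order among the members other than Mcl1 was led by Bak1 (20.3 ± 5.71 FPKM) and Bid (15.5 ± 1.62), and Bcl2l1 was lowest by its mean (1.34 ± 0.0999). In leucogen Bmf was lowest (1.02 ± 0.104 FPKM), below every other member in each library of the group.

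**Figure D1:**
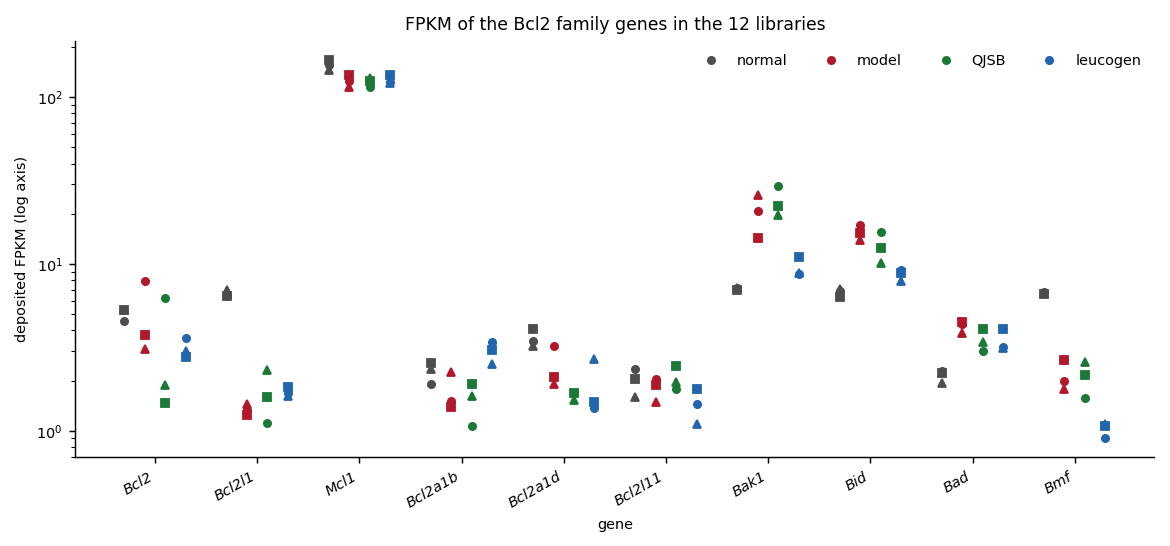
Deposited FPKM of each member on a log axis, with 1 point per library, colour for the group and circle, square and triangle for replicates 1, 2 and 3. Mcl1 stands above 100 FPKM in all 12 libraries, Bak1 and Bid are higher in model and QJSB than in normal, and Bcl2l1 and Bmf are lower in the 3 groups given cyclophosphamide than in normal.

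After cyclophosphamide alone, in model against normal, the survival gene Bcl2l1 and the BH3-only gene Bmf fell, and the pore former Bak1 and the BH3-only genes Bid and Bad rose. A gene was called when it differed by more than 1.5-fold in either direction and its Benjamini-Hochberg adjusted p over all genes tested was under 0.05 (edgeR quasi-likelihood test). By this rule 5 of the 10 members were called, 3 of them higher and 2 lower. Of all 14752 genes tested, 35.1% were called, 16.1% higher and 19.0% lower. With total counts in place of TMM scaling the calls over all genes were 3024 higher and 2346 lower, against 2368 and 2803, and the median of all genes moved from 0.02 to 0.14 on the log2 scale, while the same 5 members were called. The 3 libraries of model and of normal did not overlap for 7 members, and for 55.5% of all genes tested. The median log2 fold change of the members was -0.35, beside 0.02 over all genes. An exact two-sided permutation test of a single gene with 3 libraries against 3 cannot go below p = 0.1, and this smallest value was reached by the 7 members whose groups did not overlap.

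**Figure D2:**
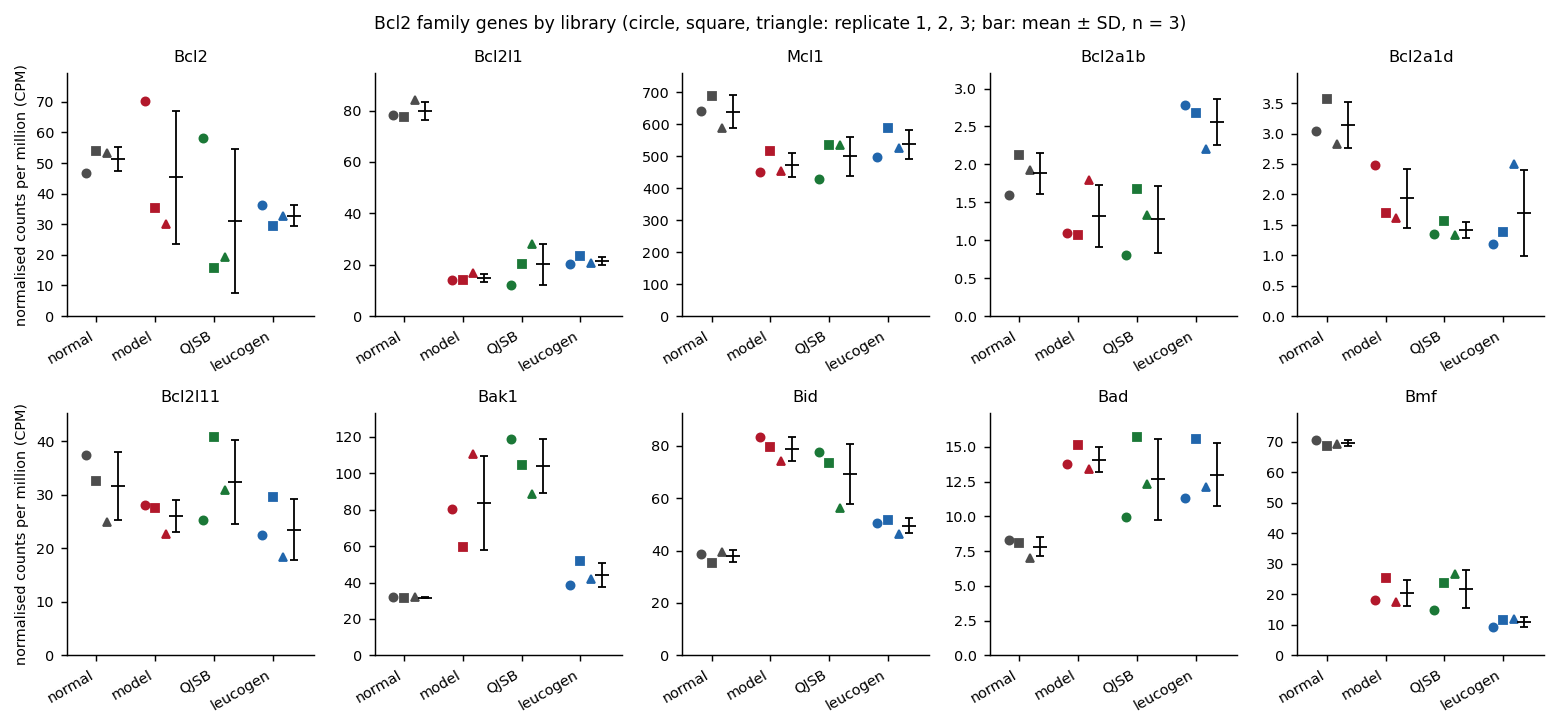
CPM of each member in the 12 libraries, each panel with its own axis from 0, with 1 point per library (circle, square and triangle for replicates 1, 2 and 3) and the mean ± SD of each group beside the points. Bcl2l1 and Bmf fall from 77.6 CPM or more and 68.8 CPM or more in normal to 28.1 CPM or less and 26.7 CPM or less elsewhere, and Bcl2 is high in model 1 and QJSB 1.

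Bcl2l1 (ENSMUSG00000007659, chr2:152780668-152831728, minus strand) encodes BCL-XL. Its level was 78.3, 77.6 and 83.9 CPM in the normal libraries, 14.1, 13.9 and 16.7 CPM in model, 12.1, 20.4 and 28.1 CPM in QJSB and 20.3, 23.3 and 20.7 CPM in leucogen. Every normal library was far above every library that had received cyclophosphamide. In model against normal the gene fell by 2.42 on the log2 scale (SE 0.137, adjusted p = 1.14e-05), a level 5.34-fold lower. It was called in each of the 15 fits tried, with log2 fold changes from -2.50 to -2.22.

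Bmf (ENSMUSG00000040093, chr2:118528757-118549687, minus strand) encodes a BH3-only protein that binds survival proteins. Its level was 70.7, 68.8 and 69.2 CPM in normal, 18.1, 25.3 and 17.7 CPM in model, 14.8, 23.7 and 26.7 CPM in QJSB and 9.21, 11.7 and 11.9 CPM in leucogen. The normal libraries were highest, and the leucogen libraries lay below all others. In model against normal Bmf fell by 1.77 on the log2 scale (SE 0.170, adjusted p = 0.000118), or 3.41-fold. This death-promoting gene therefore moved in the same direction as the survival gene Bcl2l1.

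Bak1 (ENSMUSG00000057789, chr17:27019810-27029009, minus strand) encodes BAK. Its level was 32.2, 31.3 and 31.9 CPM in normal, 80.6, 59.6 and 111 CPM in model, 119, 105 and 88.7 CPM in QJSB and 38.7, 51.6 and 41.8 CPM in leucogen. Each of the 3 groups given cyclophosphamide lay above normal without overlap, and leucogen lay below model and QJSB without overlap. In model against normal Bak1 rose by 1.40 on the log2 scale (SE 0.212, adjusted p = 0.00118), or 2.64-fold. The gene overlaps Ggnbp1 on the other strand, whose mean level was 2.69 CPM in normal, 2.98 in model, 8.39 in QJSB and 12.7 in leucogen. The libraries were strand-specific, but whether the counting used strand is not given in the sources used here.

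Bid (ENSMUSG00000004446, chr6:120891930-120916853, minus strand) encodes the BH3-only protein that caspase-8 cleaves, which links death receptors to mitochondria. Its level was 38.8, 35.3 and 39.4 CPM in normal, 83.1, 79.3 and 74.1 CPM in model, 77.7, 73.4 and 56.4 CPM in QJSB and 50.5, 51.6 and 46.4 CPM in leucogen. Leucogen lay between normal and the other groups without overlapping either. In model against normal it rose by 1.06 (log2, SE 0.122, adjusted p = 0.00028). Its neighbour on the other strand, Bcl2l13, had 107 CPM in normal, 89.0 in model, 102 in QJSB and 64.2 in leucogen. From normal to model Bcl2l13 had a log2 fold change of -0.26 (adjusted p = 0.15), against the rise of Bid. In leucogen against model it had the sign of Bid (-0.47, adjusted p = 0.047, short of the fold required), and in QJSB against leucogen it was called higher (0.65, adjusted p = 0.0107), where Bid had 0.46 (adjusted p = 0.045) and was not called. Its part in the values of Bid was not tested.

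Bad (ENSMUSG00000024959, chr19:6941861-6951898, plus strand) encodes a BH3-only protein that kinases of growth factor signalling keep inactive. Its level was 8.33, 8.09 and 7.03 CPM in normal, 13.8, 15.1 and 13.4 CPM in model, 9.93, 15.7 and 12.4 CPM in QJSB and 11.4, 15.6 and 12.1 CPM in leucogen. All 9 libraries with cyclophosphamide were above the normal libraries, and the 3 groups with it overlapped. In model against normal Bad rose by 0.85 on the log2 scale (SE 0.172, adjusted p = 0.00475). Gpr137, which overlaps it on the other strand, had 8.85 CPM in normal and 10.4 CPM in model.

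The other 5 members were not called in model against normal. Mcl1 was at 642, 690 and 589 CPM in normal and at 450, 517 and 455 CPM in model, with no overlap. Its log2 fold change of -0.43 (SE 0.128) had an adjusted p of 0.0264 but did not reach the fold required. Bcl2 (ENSMUSG00000057329, chr1:106538178-106714274, minus strand) was at 46.8, 54.0 and 53.3 CPM in normal and at 70.3, 35.4 and 30.2 CPM in model. Model 1 was thus above all normal libraries and the other model libraries below them. The log2 fold change was -0.18 (SE 0.299, adjusted p = 0.67), and without model 1 Bcl2 was called at -0.63 (SE 0.156, adjusted p = 0.0142). Without model 3 it turned to 0.05. Gm37053, which overlaps Bcl2 on the same strand, had a mean of 4.77 CPM in normal, 2.86 in model, 1.67 in QJSB and 3.01 in leucogen. Its part in the values of Bcl2 was not tested.

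Bcl2l11 (ENSMUSG00000027381, chr2:128126038-128162547, plus strand), the gene of BIM, was at 37.4, 32.5 and 24.9 CPM in normal and at 28.0, 27.5 and 22.7 CPM in model, and the groups overlapped (log2 fold change -0.27, SE 0.185, adjusted p = 0.27). The A1 copies rested on 15 to 52 counts a library. Gm29094, which overlaps Bcl2a1b on the same strand, had a mean of 0.654 CPM in normal, 0.310 in model, 0.628 in QJSB and 0.907 in leucogen. Its part in the values of Bcl2a1b was not tested. Bcl2a1d was at 3.04, 3.57 and 2.83 CPM in normal and at 2.48, 1.70 and 1.62 CPM in model, without overlap (log2 fold change -0.69, SE 0.296, adjusted p = 0.092). Without model 1 it was called, at -0.91 (adjusted p = 0.0472). Bcl2a1b was at 1.59, 2.13 and 1.93 CPM in normal and at 1.10, 1.06 and 1.79 CPM in model, with a log2 fold change of -0.51 (SE 0.346, adjusted p = 0.27). Without model 1, 7 members were called in place of 5, the additions being Bcl2 and Bcl2a1d. Over all genes that fit called 5313 of 15005, against 5171 of 14752 with model 1.

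Cell-type markers moved with these changes. Total marrow is a mixture, and in such samples fewer cells of a type cannot be told apart from less RNA per cell. All 13 erythroid markers tested were called lower in model against normal, and their summed level fell from 16530 to 17940 CPM in the normal libraries to 270 to 1161 CPM in model, 245 to 630 CPM in QJSB and 410 to 763 CPM in leucogen. Of the 12 precursor B cell markers 9 were called lower, with sums of 1725 to 1922 CPM in normal, 36.9 to 287 in model, 20.02 to 70.1 in QJSB and 22.0 to 35.4 in leucogen. All 10 mature B cell markers were called lower as well, with sums of 949 to 1113 CPM in normal and 109 to 196 CPM in the other groups. Of the 8 promyelocyte markers, genes of early granulocytes such as Elane and Mpo, 6 were called higher, with sums of 812 to 1099 CPM in normal, 6983 to 9714 in model, 8411 to 9146 in QJSB and 3661 to 4814 in leucogen. Of 9 eosinophil and basophil markers 8 were called lower, with sums of 1349 to 1672 CPM in normal and 74.8 to 176 CPM in model. Of the 11 T and NK cell markers tested 9 were called lower and 1 higher, with sums of 85.4 to 111 CPM in normal and 111 to 136 CPM in model. Of the 12 monocyte and macrophage markers 5 were called higher and 4 lower, with sums of 1225 to 1372 CPM in normal and 2035 to 3234 CPM in model. Of 15 late neutrophil markers 6 were called lower, with sums of 20600 to 24260 CPM in normal. Of 11 stem and progenitor markers 7 were called higher, of 13 stroma and endothelium markers 2 were called higher, of 20 proliferation genes 7 were called lower, and of 9 megakaryocyte markers none was called. Beside these counts, 35.1% of all genes tested were called. Sums of the B cell, erythroid and promyelocyte lists separated normal from the other groups, as Bcl2l1, Bmf, Bak1 and Bid did. So did those of the eosinophil and basophil, monocyte and macrophage, and proliferation lists. The promyelocyte, T and NK cell, and stem and progenitor sums, like Bak1 and Bid, were lower in leucogen than in model and QJSB. In leucogen against model 5 of 8 promyelocyte markers were called lower, beside 23.1% of all genes called. Of 7 T and NK cell markers tested 1 was called higher and 1 lower, and of 11 stem and progenitor markers 1 lower. The T and NK cell sum was not lower in model although 9 of 11 markers were called lower, so sums need not follow most of a list. Among the listed markers those at 0 counts in all libraries of a group were Vpreb3 and Fcer2a in QJSB, Vpreb2, Vpreb3, Cr2 and the T cell gene Cd8b1 in leucogen, and none in normal or model. The part of these cell types in the changes of the members was not tested.

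**Figure D3:**
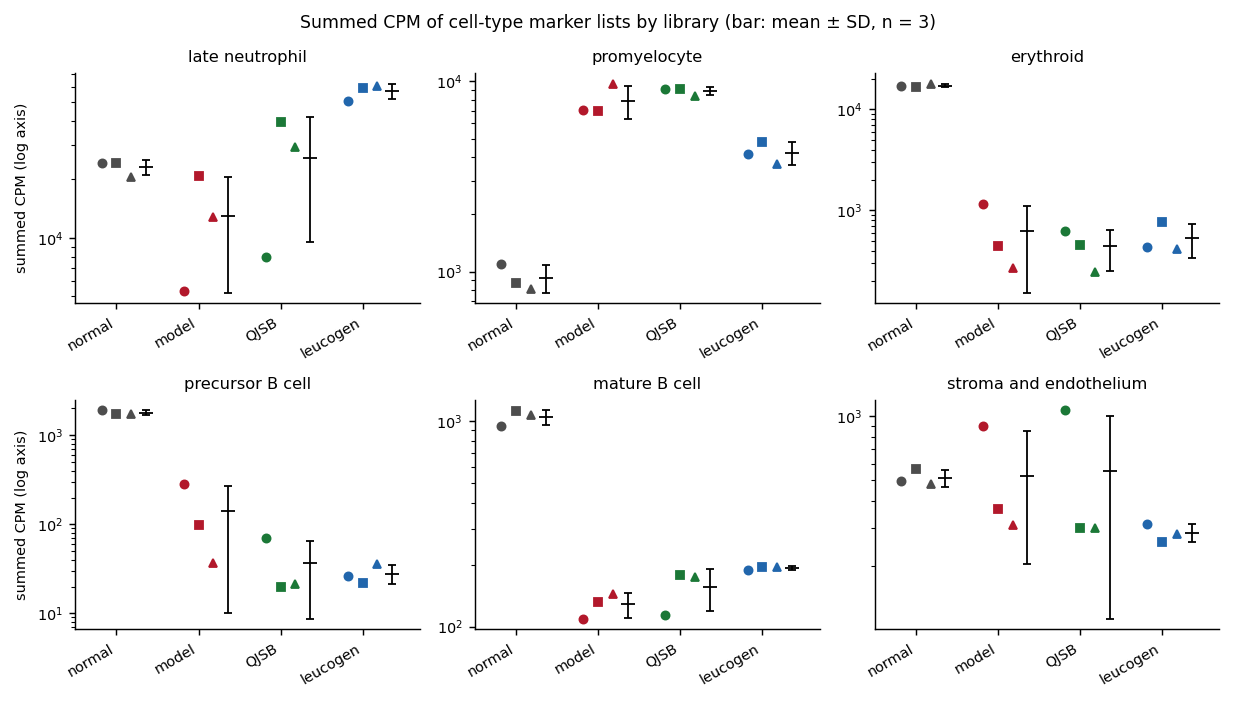
Summed CPM of 6 lists of cell-type markers on log axes, with 1 point per library (circle, square and triangle for replicates 1, 2 and 3) and the mean ± SD of each group. Erythroid and B cell sums are highest in the normal libraries, promyelocyte sums are lowest there, and model 1 and QJSB 1 have the lowest late neutrophil sums.

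QJSB against model asked whether the granule changed the family in marrow exposed to cyclophosphamide. None of the 10 members was called, and of all 14486 genes tested 0% were (edgeR, 0 calls). At an unadjusted p under 0.05 there were 0 members and 723 genes, or 4.99% of those tested. DESeq2 called 0 members and 8 genes. A fit with the replicate number as a block was run, since same-numbered QJSB and model libraries deviated together, though no source states a pairing. In it edgeR called 0 members and 18 genes, and 1434 genes had an unadjusted p under 0.05. Among the members only Bcl2a1d had groups that did not overlap, against 9.80% of all genes. Its level was 1.34, 1.56 and 1.34 CPM in QJSB and 2.48, 1.70 and 1.62 CPM in model (log2 fold change -0.47, SE 0.361, adjusted p = 0.79). The smallest adjusted p of a member was 0.77, for Bcl2l1 (0.42, SE 0.297). The median over the members was 0.00 on the log2 scale, beside -0.02 over all genes.

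These values do not show that QJSB left the members as they were. Without the block, the 95% interval of the log2 fold change ran from -0.32 to 0.45 for Mcl1, which keeps it within 1.5-fold in either direction, and Mcl1 was alone in this among the members. It ran from -0.23 to 0.83 for Bak1, from -0.59 to 0.18 for Bid, from -0.52 to 0.68 for Bmf and from -0.25 to 1.10 for Bcl2l1. The widest was that of Bcl2, from -1.84 to 0.72, whose level was 58.1, 15.8 and 19.4 CPM in the QJSB libraries. In the fit with the replicate block Bcl2 had a log2 fold change of -0.70 (SE 0.212, unadjusted p = 0.00672, adjusted p = 0.35), with an interval from -1.17 to -0.24, and was lower in QJSB in all 3 same-numbered pairs. It was the only member with an unadjusted p under 0.05 in that fit, beside 1434 of the 14486 genes tested. Bcl2 was not called there, and no source states that the same-numbered libraries are paired. By these levels QJSB 1, like model 1, was above every normal library, and the other QJSB libraries were below every model library. Without both model 1 and QJSB 1, Bcl2 had a log2 fold change of -0.93 (SE 0.262, adjusted p = 0.22) and Bcl2l1 of 0.64 (SE 0.284, adjusted p = 0.44), and no member was called. Mcl1 was at 429, 537 and 535 CPM in QJSB, Bcl2l11 at 25.3, 40.9 and 30.9 CPM and Bcl2a1b at 0.805, 1.68 and 1.34 CPM, and each overlapped model. Bcl2l1 was lowest in QJSB 1 (12.1 CPM), below the model libraries, and above all of them in QJSB 2 and 3 (20.4 and 28.1 CPM).

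**Figure D4:**
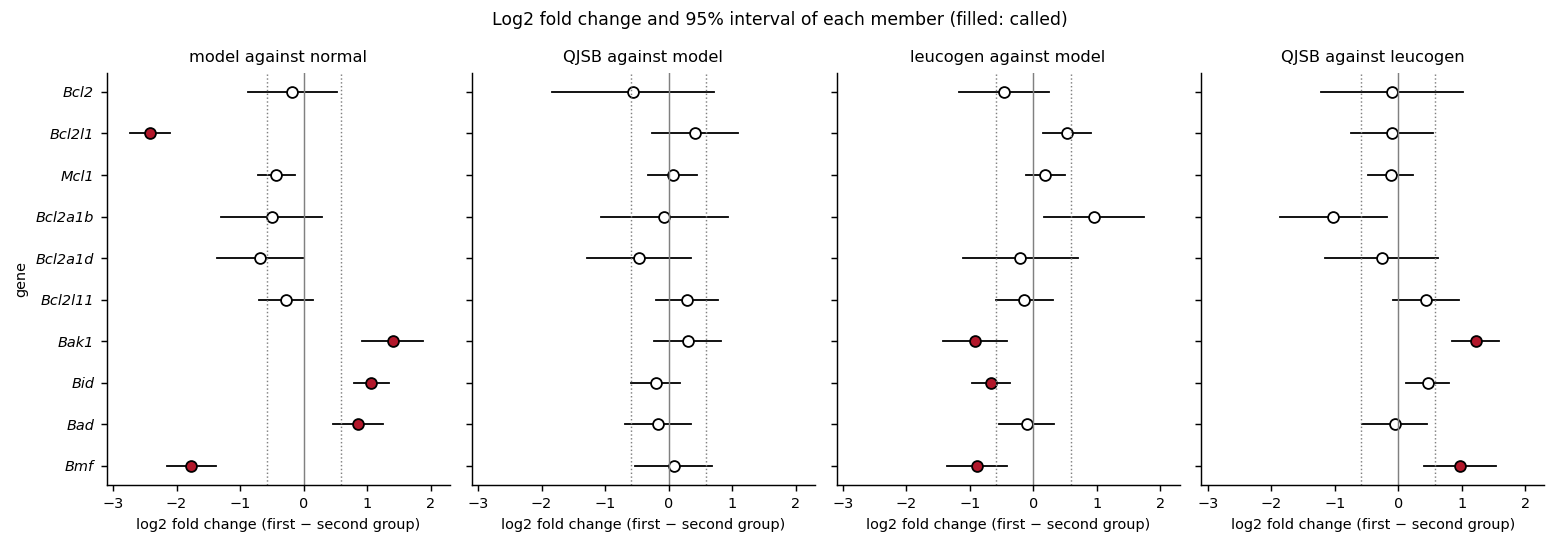
Log2 fold change (point) and 95% interval (line) of each member in 4 comparisons, filled where the gene was called, with dotted lines at 1.5-fold in either direction. In QJSB against model, fitted without the replicate block, all 10 intervals cross 0, whereas Bak1, Bid and Bmf lie below 0 in leucogen against model, and the points of Bak1 and Bmf above 1.5-fold in QJSB against leucogen.

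Leucogen against model asked the same of the reference drug. Bak1, Bid and Bmf were called, all lower with leucogen, so that 3 of 10 members were called and 0 were called higher. Of all 14184 genes 23.1% were called, 11.6% higher and 11.5% lower. With total counts the calls were 1150 higher and 2655 lower against 1640 and 1635, and the median of all genes moved from -0.05 to -0.22, while the same 3 members were called. The groups did not overlap for 5 members and for 46.0% of all genes. The median over the members was -0.17 on the log2 scale, beside -0.05 over all genes.

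Bak1 fell by 0.92 on the log2 scale (SE 0.224, adjusted p = 0.0177), from a mean of 83.7 CPM in model to 44.0 CPM, and stayed above the normal mean of 31.8 CPM. Bid fell by 0.67 (SE 0.131, adjusted p = 0.00842), from 78.9 to 49.5 CPM. Bmf fell by 0.89 (SE 0.212, adjusted p = 0.0163), from 20.3 to 10.9 CPM. For Bak1 and Bid the change went against that from normal to model, and for Bmf in the same direction as it. These comparisons share the model libraries, so the directions are not independent of each other. The calls were sensitive to single libraries. Without leucogen 3 no member was called (Bak1 adjusted p = 0.080, Bid 0.056, Bmf 0.057), and without leucogen 1 Bid alone was. Over all genes the calls fell too. They were 3275 of 14184 with every library, 1239 of 14680 without leucogen 3 and 1724 of 14611 without leucogen 1. The log2 fold changes without leucogen 3 were -0.89 for Bak1, -0.62 for Bid and -0.96 for Bmf. Without model 3 there were 5 member calls, with Bcl2l1 and Bcl2a1b added, beside 2728 of 14475 genes.

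Bcl2l1 was higher in every leucogen library than in every model library, by 0.53 on the log2 scale (SE 0.166, adjusted p = 0.0425), short of the fold required, and its mean of 21.4 CPM remained below the 79.9 CPM of normal. Bcl2a1b was at 2.78, 2.68 and 2.21 CPM in leucogen, above all model libraries (log2 fold change 0.96, SE 0.351, adjusted p = 0.070). It was called with a filter of 10 counts in every library (adjusted p = 0.044) and with limma-trend on FPKM (adjusted p = 0.040). Its adjusted p ranged from 0.040 to 0.18 over the 15 fits. Mcl1 (498, 588 and 527 CPM in leucogen, log2 fold change 0.19), Bad (-0.11), Bcl2l11 (-0.14), Bcl2a1d (-0.21) and Bcl2 (-0.46) were not called. Bcl2l11 was at 22.6, 29.6 and 18.3 CPM and Bcl2a1d at 1.19, 1.38 and 2.50 CPM in leucogen. Bcl2 was at 36.3, 29.6 and 32.5 CPM in leucogen, and without model 1 its log2 fold change turned to 0.02. Late neutrophil markers moved with this comparison: 10 of 15 were called higher, with sums of 50720 to 60410 CPM in leucogen against 5296 to 20730 CPM in model, and 5 of the 8 promyelocyte markers, 5 of the 12 monocyte and macrophage markers and 4 of the 20 proliferation genes were called lower. Beside these counts, 23.1% of all genes tested were called. Of 5 mature B cell markers tested 2 were called higher, of 7 precursor B cell markers 2 lower, and of 12 stroma and endothelium markers 2 lower. Of 7 T and NK cell markers 1 was higher and 1 lower, and of 11 stem and progenitor markers 1 lower. No erythroid, megakaryocyte, or eosinophil and basophil marker was called. The part of these cell types in the changes of Bak1, Bid and Bmf was not tested.

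QJSB against leucogen compared the drugs directly. Bak1 and Bmf were called, both higher in QJSB, that is 2 of 10 members beside 24.6% of the 14266 genes tested. Bak1 was higher by 1.22 on the log2 scale (SE 0.161, adjusted p = 0.00304), with 104 ± 15.0 CPM in QJSB and 44.0 ± 6.74 CPM in leucogen (SD, n = 3). It was called in all 15 fits, with values from 1.11 to 1.34. Bmf was higher by 0.97 (SE 0.250, adjusted p = 0.0212), with 21.7 ± 6.23 against 10.9 ± 1.49 CPM. Leaving out QJSB 2, QJSB 3 or any leucogen library took its adjusted p to between 0.052 and 0.085. Bid was higher by 0.46 (SE 0.147, adjusted p = 0.0455), short of the fold required. Bcl2a1b was lower by 1.03 (SE 0.370, adjusted p = 0.068). Bcl2 differed by -0.10 with QJSB 1 in the fit and was called at -0.93 (SE 0.173, adjusted p = 0.0037) without it.

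Against normal, the drug groups kept the changes of Bcl2l1 and Bmf. In QJSB against normal 6 of 10 members were called beside 37.9% of the 14817 genes tested: Bcl2l1 (log2 fold change -1.97, SE 0.274), Bmf (-1.67, SE 0.211) and Bcl2a1d (-1.14, SE 0.266) were lower, and Bak1 (1.73, SE 0.136), Bid (0.88, SE 0.148) and Bad (0.71, SE 0.212) were higher. The call of Bad was lost when any normal library, QJSB 2 or QJSB 3 was left out (adjusted p from 0.057 to 0.099), and that of Bcl2a1d without normal 2 (adjusted p = 0.056). Without QJSB 1, Bcl2 was called too, at -1.54 (SE 0.140, adjusted p = 4.47e-05), against -0.71 with it. In leucogen against normal 5 members were called beside 37.7% of the 14637 genes tested. Bmf (-2.65, SE 0.119), Bcl2l1 (-1.88, adjusted p = 3.46e-07), Bcl2a1d (-0.90, SE 0.328) and Bcl2 (-0.63, SE 0.117) were lower, and Bad (0.76, SE 0.171) was higher. The call of Bcl2a1d was lost in DESeq2 (adjusted p = 0.089) and without leucogen 1 or 2 or any normal library. That of Bcl2 was lost with all 12 libraries in a common fit (adjusted p = 0.28) and, by its fold (-0.57), without leucogen 2, where Bcl2l11 was called instead (-0.62, SE 0.187, adjusted p = 0.0238). Bak1 (0.49, SE 0.118, adjusted p = 0.00574) and Bid (0.41, SE 0.099, adjusted p = 0.00596) were higher in leucogen than in normal but short of the fold required. Mcl1 was lower than in every normal library in both, with log2 fold changes of -0.34 (adjusted p = 0.071) in QJSB and -0.23 (adjusted p = 0.063) in leucogen. Bcl2l11 differed from normal by 0.05 in QJSB and by -0.40 (adjusted p = 0.12) in leucogen, and Bcl2a1b by -0.55 (adjusted p = 0.24) and 0.46 (adjusted p = 0.19). These comparisons share the normal libraries with model against normal.

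Around these members, 16 further family genes were read from the same fits, of which 11 passed the filter on low counts. In model against normal 2 were called higher and 2 lower, beside 35.1% of all genes called in either direction. Their median log2 fold change was -0.22, beside 0.02 over all genes. Pmaip1, the gene of the BH3-only protein NOXA that opposes MCL1, rose by 1.71 (SE 0.226, adjusted p = 0.000605), from 12.1 ± 2.56 to 39.4 ± 8.55 CPM. Bnip3l, a mitophagy receptor used by reticulocytes, fell by 2.11 (SE 0.194, adjusted p = 9.77e-05), from 690 ± 3.81 to 159 ± 41.5 CPM. In leucogen against model 3 of the 11 tested were called higher and 1 lower, beside 23.1% of all genes called. The second pore former, Bax, fell by 0.75 (SE 0.195, adjusted p = 0.0228), from 13.3 ± 0.628 to 7.89 ± 1.00 CPM, and was thus lower with leucogen as Bak1 was. Its log2 fold change from normal to model was 0.19 (adjusted p = 0.35), where Bak1 rose. The survival gene Bcl2l2 rose by 1.38 (SE 0.402, adjusted p = 0.0395), and Bnip3l by 0.59 (SE 0.194, adjusted p = 0.0491). In QJSB against model none of the 11 tested was called.

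Of 17 genes downstream of the mitochondria, the caspases, their activators and inhibitors, 6 were called higher and 2 lower in model against normal. Their median was 0.10, and 35.1% of all genes were called. Apaf1, the scaffold of the apoptosome, rose by 0.66 (SE 0.128, adjusted p = 0.00388), Aifm1, a mitochondrial flavoprotein, by 0.73 (SE 0.128) and the channel gene Vdac2 by 0.91 (SE 0.170), and the inhibitor gene Birc2 fell by 0.79 (SE 0.144). In leucogen against model 1 was called higher and 3 lower, with a median of -0.19, beside 23.1% of all genes called. Xiap, which encodes an inhibitor of caspases, rose by 1.06 (SE 0.183, adjusted p = 0.00559), from 209 ± 46.9 to 435 ± 50.2 CPM, and Aifm1 (-0.67, SE 0.145) and Casp6 (-0.80, SE 0.263) were lower. In QJSB against leucogen Xiap was lower by 1.38 (SE 0.152, adjusted p = 0.00285).

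The counts called in the next 2 lists stand beside 35.1% of all genes in model against normal and 23.1% in leucogen against model. Of 12 death receptor genes 2 were called higher and 1 lower in model against normal, with a median of 0.22. Tnfrsf10b, the mouse TRAIL receptor, rose by 1.79 (SE 0.320, adjusted p = 0.00268), from 1.33 ± 0.107 to 4.60 ± 1.43 CPM, and the TNF receptor gene Tnfrsf1a by 0.81 (SE 0.205). In leucogen against model 2 of the 11 tested were called higher and 0 lower: Tnf, a ligand, by 1.40 (SE 0.273) and Cflar, an inhibitor of caspase-8, by 0.70 (SE 0.182). Of 18 genes known to regulate members of the family 2 were called higher and 4 lower in model against normal, with a median of 0.08. Foxo1 (-2.60, SE 0.219) and Foxo3 (-1.84, SE 0.151), transcription factors known to act on Bcl2l11, and the kinase gene Pim2 (-1.78, SE 0.202) fell, as did Ddit3 (-0.69, SE 0.226), and Stat3 (0.90, SE 0.171) and Ywhaz (0.68, SE 0.149), whose product holds phosphorylated BAD, rose. In leucogen against model Mdm2 rose by 0.62 (SE 0.138), and Trp53 (-0.73, SE 0.220), Stat5a (-0.73, SE 0.188) and Foxo1 (-0.80, SE 0.247) were lower. In QJSB against model none of the genes of these 3 lists was called.

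The genes whose pattern over the 12 libraries was nearest to each member were found by the root mean square difference of log2 CPM after each gene was centred on its mean. For Bak1, whose own log2 CPM varied by 0.713 about its mean, they were Mapkapk2 (0.091), Man2b2 (0.118) and Surf4 (0.120). For Bcl2l1, which varied by 0.974, they were Carhsp1 (0.180), Ppox (0.204) and Siglecg (0.224). Ppox encodes an enzyme of haem synthesis. Bmf varied by 0.993 and its nearest genes were less close, Ccrl2 (0.258), Btg1 (0.270) and Pde4b (0.330). Bid (0.428) was nearest to 1500011B03Rik (0.122), Ddx19b (0.128) and Tbcb (0.131), and Bad (0.373) to Snx4 (0.138), Xpc (0.152) and Spg21 (0.155). Mcl1 varied least, by 0.199, and was nearest to Fbxo3 (0.077), Ddx6 (0.084) and Sp1 (0.087). Bcl2 (0.615) was nearest to Pcdhga6 (0.237), Slc39a10 (0.238) and the TRAIL gene Tnfsf10 (0.261), and Bcl2l11 (0.309) to Zfp213 (0.174), Dcaf11 (0.181) and Zer1 (0.186). The A1 copies, with few counts, varied by 0.485 (Bcl2a1b) and 0.488 (Bcl2a1d), and their nearest genes were 4930581F22Rik (0.213), Gm10125 (0.218) and Icosl (0.228) for Bcl2a1b and Plekhg5 (0.208), Rita1 (0.224) and Nlrp3 (0.235) for Bcl2a1d. All of these values share the same libraries and their makeup of cells.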

How the data were processed

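Ribosomal RNA was removed from the marrow RNA of the 12 mice before strand-specific libraries were made. The authors cleaned reads with Seqtk and aligned them with Hisat2 to GRCm38.p4. The counting program is not given in the sources used here. The deposited counts are whole numbers per gene without normalization, and the deposited FPKM were computed by the authors from fragments, transcript length and library total. The headings Blank, Positive and Stilbene were read by their meaning and by elimination, then compared with mean normalized counts in a supplementary table of the study. The value compared was the mean over the libraries of both groups together, not that of each group. It matched within 1% for 298 of 300 genes listed for model against normal and for all 300 of each drug against model. Any other reading matched at most 10.

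Counts were tested with edgeR 4.0.16 (TMM, filterByExpr, robust quasi-likelihood fit) in R 4.3.3, in 6 comparisons of 2 groups, and p-values were adjusted over all genes tested. The code was tested on simulated counts. CPM used TMM factors over the 12 libraries, and log2 CPM a prior count of 2. Libraries of a group differed by more than counting error in all 12 pairs. The alternatives used DESeq2 1.42.0, limma 3.58.1 on log2(FPKM + 0.1) where the mean FPKM reached 0.1, other scalings and filters, the replicate number as a block, and each library left out. Leaving out model 1 and QJSB 1 together was chosen after seeing the data. The members and gene lists were chosen with earlier results of these data known. All members are named. Of each pathway list at most 4 genes per direction are named, those called in model against normal or leucogen against model with the largest change and a mean count of at least 50, and for each member the 3 genes nearest in pattern. Some genes that this rule names are not reported here. Gene coordinates are those deposited, and motifs were searched as exact letters on both strands. Deviations of same-numbered QJSB and model libraries from their group means correlated (0.426, 0.123 and 0.107 over 15310 genes). Those of QJSB and leucogen did so too (0.181, 0.134 and 0.078). In the other comparisons the correlations ran from -0.122 to 0.106, with both signs in each comparison. Differently numbered libraries were not compared, and no source states a pairing. Model 1 and QJSB 1 also shared low late neutrophil and high stroma markers. Whether the replicate numbers pair the mice is therefore not known. The replicate block called 0 members in QJSB against model.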

Additional observations from a re-analysis of the deposited data

Results flagged for a closer look

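The effects of the drugs, each against the same model libraries, differed for 2 members in the direct test of QJSB against leucogen. Bak1 differed by 1.22 on the log2 scale, with model to QJSB at 0.30 and model to leucogen at -0.92. Bmf differed by 0.97, with model to QJSB at 0.08 and model to leucogen at -0.89. In both genes every QJSB library lay above every leucogen library, but the share of all genes without overlap in this comparison is not reported here. That share was 55.5% in model against normal, 46.0% in leucogen against model and 9.80% in QJSB against model. These calls, 2 of 10 members, stood beside 24.6% of all genes tested. That of Bmf was lost without QJSB 2, QJSB 3 or any leucogen library. Groups of 3 libraries were too small to test for a library far from the others.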

How the results depend on the processing

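Of the 91 counts of called members under alternatives, 83 stayed within 1.5 times the reported count, and 787 of the 850 member fold changes kept their direction and call. The 8 counts that moved came from leaving out a library. In those fits the members called ranged from 0 to 5 in leucogen against model and from 1 to 3 in QJSB against leucogen. With a library left out, calls over all genes ranged from 1239 to 3953 in the first comparison and from 1544 to 3585 in the second. All 40 FPKM means moved by less than their SD when the libraries were rescaled to the same FPKM total. The replicate block called 5 members in model against normal, 0 in QJSB against model, 3 in leucogen against model, 2 in QJSB against leucogen, 5 in QJSB against normal, where Bad was lost (adjusted p = 0.057), and 4 in leucogen against normal, where Bcl2a1d was lost (adjusted p = 0.061). The replicate numbers were not shown to pair the libraries in any comparison.

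No member that was called turned its direction. Among members not called, total counts turned Mcl1 (-0.029) and Bmf (-0.021) in QJSB against model and Bcl2 (0.04) and Bad (0.015) in QJSB against leucogen. Limma-trend on FPKM turned Mcl1 (-0.027) and Bmf (-0.028) in the first of these and Bad (0.014) in the second, and leaving out both model 1 and QJSB 1 turned Bcl2a1b in QJSB against model (0.042). Leaving out each library in turn gave log2 fold changes on both sides of 0 for Bcl2 in model against normal (-0.633 to 0.05). In QJSB against model it did so for Bcl2a1b (-0.309 to 0.22) and Bmf (-0.093 to 0.297). In leucogen against model it did so for Bcl2 (-0.651 to 0.018), Bcl2a1d (-0.583 to 0.027) and Bcl2l11 (-0.335 to 0.004). In QJSB against leucogen it did so for Bcl2 (-0.925 to 0.24), Bcl2l1 (-0.43 to 0.155), Bcl2a1d (-0.462 to 0.124) and Bad (-0.227 to 0.087), and in QJSB against normal for Bcl2l11 (-0.152 to 0.191). The cause of these turns was not tested.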

Other observations

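The ratio of the FPKM of Bak1 to that of Bcl2l1, a pore former over a survival gene, was formed after the values had been seen and carries no test. It was 1.03 to 1.11 in the normal libraries, 11.6 to 17.9 in model, 8.54 to 26.5 in QJSB and 5.17 to 6.01 in leucogen, so that the groups given cyclophosphamide lay apart from normal and leucogen lay below model and QJSB. The ratio of Bid to Bmf, both BH3-only genes, was 0.956 to 1.06 in normal, 5.83 to 8.57 in model, 3.93 to 9.80 in QJSB and 7.27 to 10.2 in leucogen, where model, QJSB and leucogen overlapped. The summed FPKM of Bid, Bad, Bmf and Bcl2l11 was 17.2 to 18.3 in normal, 21.0 to 25.5 in model, 18.0 to 21.8 in QJSB and 13.3 to 15.7 in leucogen.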
